A study of Mus musculus with 4 samples.

Results

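Messenger RNA levels of 10 immunoglobulin cell adhesion molecules (Alcam, Mcam, Bcam, L1cam, Chl1, Nrcam, Nfasc, Ncam1, Ncam2 and Cntn2) were read in 4 sorted mouse cell populations, with 1 array each. The genes were chosen by name, with earlier results of these data known. Each of the 10 is represented by 1 transcript cluster (a set of probes along a transcript) that is paired with its symbol alone, out of 28856 clusters and 19938 genes so paired in the series. The first pair of populations came from ESCs of a 129SVEV line with GFP knocked in at the Lmx1a locus, which were differentiated as floating aggregates with SHH and FGF8b added early. These cells were sorted on day 9 into CORIN+LMX1A::GFP+ cells (cultured CORIN+ cells) and CORIN-LMX1A::GFP+ cells (cultured CORIN- cells), so that both carry the knock-in and both express GFP. The second pair, CORIN+ and CORIN- cells, was sorted from the ventral mesencephalon (VM) of C57BL/6N fetuses at E11.5, with no reporter and no selection for LMX1A. CORIN- cells of the fetal VM thus comprise every cell that the CORIN antibody did not select. The labels do not say how many cultures or fetuses were pooled. Strain, origin, stage, added factors, reporter and the selection for LMX1A::GFP cannot be told apart between culture and fetus.

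ALCAM (also called CD166), MCAM and BCAM are transmembrane proteins with a shared arrangement of immunoglobulin domains. ALCAM binds itself and the leukocyte receptor CD6, and antibodies against it have been used to sort floor plate progenitors of the midbrain. MCAM is best known from blood vessels and melanoma, and BCAM is the Lutheran blood group glycoprotein, which binds laminin chain alpha5. L1CAM, CHL1, NRCAM and neurofascin (Nfasc) form the L1 family, whose members guide and bundle axons and bind ankyrins inside the cell. NCAM1, NCAM2 and contactin-2 (Cntn2, or TAG-1) hold neurites together, and NCAM1 is the main carrier of polysialic acid in the developing brain.

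The start site sequences of the members at the extremes of the CORIN+ against CORIN- comparisons are shown, since these genes carry the results below: Alcam and L1cam for the fetal VM, and Nrcam and Cntn2 for the ESC-derived cells. Each is the RefSeq window of 250 bases before to 50 bases after the gene's start in GRCm38.p6, written 5′ to 3′ along the gene, at chr16:52453032-52453331 (minus strand) for Alcam, chrX:73880741-73881040 (minus strand) for L1cam, chr12:44328635-44328934 (plus strand) for Nrcam and chr1:132542891-132543190 (minus strand) for Cntn2. Capitals mark matches on either strand to any of 5 short words, namely the GC box GGGCGG, the CCAAT word, the TATA word TATAAA, the homeodomain core TAATTA and the forkhead core TGTTTAC. None of these matches overlapped another. L1cam has 2 windows in RefSeq, of which the first listed is shown.
Alcam: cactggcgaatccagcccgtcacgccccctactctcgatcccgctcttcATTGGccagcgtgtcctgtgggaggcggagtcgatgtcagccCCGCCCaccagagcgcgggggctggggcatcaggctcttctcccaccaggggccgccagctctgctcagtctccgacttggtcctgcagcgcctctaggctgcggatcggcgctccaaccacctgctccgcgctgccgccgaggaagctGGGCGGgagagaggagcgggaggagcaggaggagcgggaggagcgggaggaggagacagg
L1cam: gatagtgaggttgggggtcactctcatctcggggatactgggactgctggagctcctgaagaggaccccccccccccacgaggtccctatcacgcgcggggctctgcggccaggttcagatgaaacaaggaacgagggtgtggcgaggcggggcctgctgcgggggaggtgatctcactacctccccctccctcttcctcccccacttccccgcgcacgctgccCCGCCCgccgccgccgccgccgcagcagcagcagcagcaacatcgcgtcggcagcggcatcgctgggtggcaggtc
Nrcam: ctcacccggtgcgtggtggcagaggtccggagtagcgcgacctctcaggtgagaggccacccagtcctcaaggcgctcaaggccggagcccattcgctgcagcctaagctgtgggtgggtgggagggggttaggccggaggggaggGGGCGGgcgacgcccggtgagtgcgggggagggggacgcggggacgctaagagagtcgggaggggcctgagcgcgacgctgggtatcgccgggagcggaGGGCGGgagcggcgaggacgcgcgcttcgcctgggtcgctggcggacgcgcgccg
Cntn2: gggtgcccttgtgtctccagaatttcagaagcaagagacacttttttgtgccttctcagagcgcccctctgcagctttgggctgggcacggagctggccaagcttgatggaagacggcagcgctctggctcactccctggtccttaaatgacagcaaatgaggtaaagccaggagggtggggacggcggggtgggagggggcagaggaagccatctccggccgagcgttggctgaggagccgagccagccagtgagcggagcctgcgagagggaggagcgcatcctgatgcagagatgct
The GC box occurred in 2 places in Alcam, 1 in L1cam, 2 in Nrcam and none in Cntn2, and 35.9% of 27025 gene windows hold it. Alcam also had 1 CCAAT match, on the opposite strand at position -201 from the start site, a word found in 37.9% of windows. The TATA word, the homeodomain core and the forkhead core, which 14.2%, 5.31% and 3.55% of windows hold, were not in these 4 windows, which says only that these letters are not there. A window was given for 9 of the 10 members. Of these, the GC content was 69.7% for Alcam, 72.7% for Mcam, 71.0% for Bcam, 69.3% for L1cam, 53.7% for Chl1, 74.0% for Nrcam, 54.3% for Nfasc, 75.7% for Ncam2 and 61.3% for Cntn2, against a median of 52.7% over all windows. All 9 were thus above that median, and Chl1 and Nfasc lay closest to it.

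The authors deposited log2 signals, on which a difference of 1 is 2-fold. The median log2 signal of all clusters was between 7.97 and 8.03 in the 4 arrays. With 1 array per population there is no replicate spread and no test, and precision is limited by having so few arrays. A cluster sums probes over the whole transcript, so splice forms such as those of Nfasc and Ncam1 are not told apart. As a yardstick, the 5th and 95th percentiles of the log2 differences of all 28856 clusters are given, which describe the table and are not an error. Those percentiles were -0.35 and 0.32 for the ESC-derived pair (CORIN+ minus CORIN-) and -0.41 and 0.58 for the fetal pair (CORIN+ minus CORIN-). Corin, whose product the antibody binds, had log2 signals of 13.10 in cultured CORIN+ cells and 11.13 in cultured CORIN- cells, and of 11.43 in fetal CORIN+ and 7.28 in fetal CORIN- cells, so both pairs follow their labels. The floor plate factor Foxa2 had log2 signals of 11.46, 11.18, 10.48 and 10.31 in the same order. Of the 10 measured floor plate genes, which include both, 9 were higher in the CORIN+ population of the ESC-derived pair and 10 in that of the fetal pair. Their median log2 differences were 0.33 and 0.64. Of the markers listed for other cells, all 11 macrophage genes and all 12 genes of mesenchyme and meninges had a higher signal in fetal CORIN+ than in fetal CORIN- cells, with median log2 differences of 4.12 and 2.19. All 10 genes of pluripotent cells were lower in cultured CORIN+ than in cultured CORIN- cells, with a median log2 difference of -1.40. Between the CORIN- populations 9 of these 10 were higher in culture than in the fetus, with a median of 1.60. The part of such cells in the signals of the adhesion genes was not tested.

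Alcam had the highest CORIN+ against CORIN- difference of the 10 genes in the fetal VM, and a smaller one of the same direction in the ESC-derived cells. Its log2 signal was 11.88 in cultured CORIN+ cells and 11.23 in cultured CORIN- cells, a log2 difference of 0.66 (1.58-fold), which 1.06% of all clusters reached or passed. In the fetal VM the log2 signal was 12.02 in CORIN+ VM cells and 9.89 in CORIN- VM cells, a log2 difference of 2.13 (4.37-fold), which 0.409% of all clusters reached or passed. Both CORIN+ populations and the ESC-derived CORIN- population thus lay within 0.79 of each other, and the fetal CORIN- population stood apart below them. The ESC-derived difference minus the fetal difference was -1.47, and 1.78% of all clusters differed between the pairs by as much in either direction. Genes of mesenchyme and meninges, of macrophages and of endothelium had their highest summed signal in the fetal CORIN+ array too. On the log2 scale the summed signal of the 12 mesenchyme and meningeal genes was 12.24 in cultured CORIN+, 12.97 in cultured CORIN-, 14.62 in fetal CORIN+ and 12.40 in fetal CORIN- cells. That of the 11 macrophage genes was 10.09, 10.09, 14.17 and 10.19, and that of the 10 endothelial genes 10.55, 11.07, 11.98 and 10.78, in the same order of arrays. In the ESC-derived pair 11 of 12 genes of mesenchyme and meninges were lower in cultured CORIN+ cells (median log2 difference -0.81), the direction opposite to that of Alcam, and the macrophage genes had a median of -0.0093. ALCAM is also a protein of brain endothelium, and the endothelial genes had median log2 differences of -0.41 for the cultured and 0.46 for the fetal cells, with 9 of 10 lower and 9 of 10 higher. The part of these cells in the signal of Alcam was not tested. In such sorted bulk samples, fewer cells of a type and less RNA per cell cannot be told apart.

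The 5 genes whose signals in the 4 arrays, each centred on its own mean, lay nearest to those of Alcam were Islr, Hacd4, Parm1, Pltp and Crtap, at Euclidean distances of 0.22, 0.30, 0.37, 0.38 and 0.38 on the log2 scale among 19937 other genes. Their log2 differences were between 0.17 and 0.42 for the ESC-derived pair and between 1.65 and 2.19 in the fetal pair. All 5 were therefore lower than Alcam in the ESC-derived pair (0.66), and Islr and Hacd4 exceeded it in the fetal pair (2.13). Likeness over 4 arrays is a description only, since many patterns are alike over so few points.

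Mcam and Bcam, whose proteins resemble ALCAM most, did not share its fetal difference. Mcam had log2 signals of 10.24 in cultured CORIN+ cells and 9.79 in cultured CORIN- cells, a log2 difference of 0.44 (1.36-fold). In the fetal VM it was at 9.40 in CORIN+ VM cells and 9.43 in CORIN- VM cells, a log2 difference of -0.032. Downward, 51.3% of all clusters reached or passed this value, since their median was -0.037. Its fetal levels were thus nearly equal, and that difference turned positive (0.0047) when all clusters were centred on their median. Bcam showed the reverse picture, with log2 signals of 9.30 in cultured CORIN+ cells and 9.33 in cultured CORIN- cells, and of 8.64 in fetal CORIN+ and 8.28 in fetal CORIN- cells. The log2 differences of Bcam were -0.027 and 0.36, of which the fetal one lies inside the 5th to 95th percentile of all clusters. Pericytes and endothelium are known to hold MCAM, and in humans red blood cells hold BCAM. The 8 pericyte genes had median log2 differences of -0.20 for the cultured and 0.23 for the fetal cells, and the 9 measured erythroid genes of -0.050 and 1.28. Their part in the signals of Mcam and Bcam was not tested. The gene of the ALCAM receptor CD6, Cd6, was at log2 signals between 6.96 and 7.10 in all 4 arrays, with log2 differences of -0.093 and -0.088. Lama5, which encodes the laminin chain that BCAM binds, had log2 differences of -0.36 and -0.058.

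**Figure D1:**
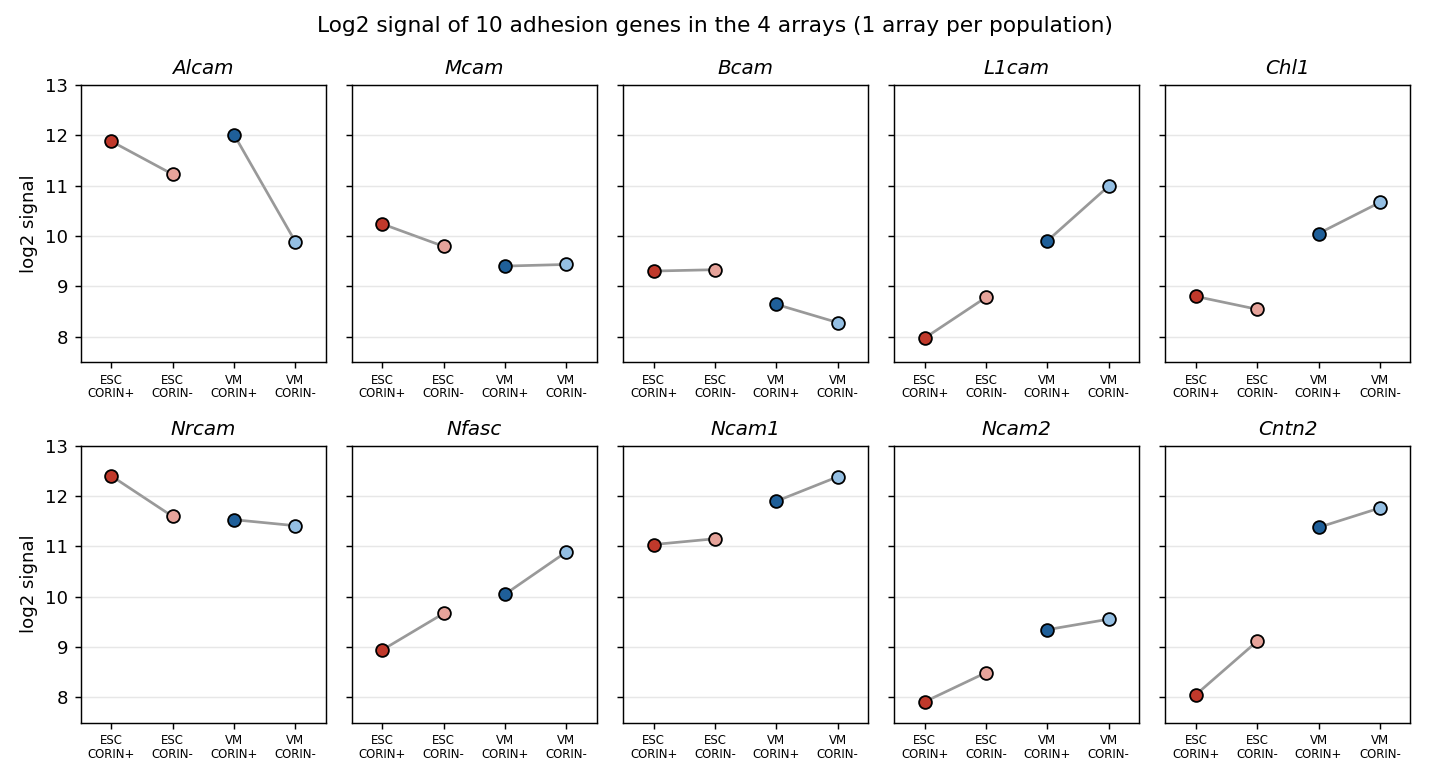
Log2 signal (vertical axis) of the 10 adhesion genes in cultured CORIN+ and CORIN- cells, derived from ESCs (red), and in CORIN+ and CORIN- cells of the fetal VM (blue), 1 array per point, with lines joining the arrays of a pair. The fetal CORIN- point of Alcam stands at 9.89 below its other points, and the points of L1cam, Nfasc and Cntn2 are lower in CORIN+ than in CORIN- cells of each pair and lower in ESC-derived than in fetal cells.

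Within the L1 family, L1cam and Nfasc were lower in the CORIN+ population of both pairs, while Nrcam and Chl1 were not. L1cam had log2 signals of 7.97 in cultured CORIN+ cells and 8.78 in cultured CORIN- cells, a log2 difference of -0.81 that 0.88% of all clusters reached or passed downward. In the fetal VM L1cam was at 9.90 in CORIN+ VM cells and 10.99 in CORIN- VM cells, a log2 difference of -1.09 (2.12-fold lower). This value was reached or passed downward by 0.568% of all clusters. Its 4 levels were in the order fetal CORIN-, fetal CORIN+, ESC-derived CORIN- and ESC-derived CORIN+, each step being 0.81 or more on the log2 scale. Nfasc, which anchors proteins at the axon initial segment and the node of Ranvier, had log2 signals of 8.95 in cultured CORIN+ cells and 9.67 in cultured CORIN- cells. It was at 10.05 in fetal CORIN+ and 10.89 in fetal CORIN- cells, so that its log2 differences were -0.73 and -0.84. The levels of Nfasc thus came in the same order as those of L1cam, and its ESC-derived difference minus its fetal one was 0.12, which 60.0% of all clusters reached or passed in either direction.
Nrcam had the highest ESC-derived difference of the 10 genes. Its log2 signal was 12.40 in cultured CORIN+ cells and 11.59 in cultured CORIN- cells, a log2 difference of 0.80 (1.75-fold) that 0.686% of all clusters reached or passed. In the fetal VM it was at 11.53 in CORIN+ VM cells and 11.41 in CORIN- VM cells, a log2 difference of 0.12 (1.09-fold). This fetal value lies inside the percentile range of all clusters. The other populations thus lay close together for this gene, and the cultured CORIN+ cells stood above them. Chl1, the close homologue of L1, was the member with the clearest opposite directions, at log2 signals of 8.80 in cultured CORIN+ cells and 8.54 in cultured CORIN- cells, against 10.05 in fetal CORIN+ and 10.67 in fetal CORIN- cells. Its log2 differences were 0.26 and -0.62, of which the first lies inside the percentile range of all clusters and the second outside it.

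Ncam1, Ncam2 and Cntn2 had a lower signal in the CORIN+ population of both pairs. Ncam1 was at log2 signals of 11.04 in cultured CORIN+ cells and 11.15 in cultured CORIN- cells, and at 11.90 in fetal CORIN+ and 12.38 in fetal CORIN- cells. The log2 differences of Ncam1 were -0.11 and -0.48, of which the first lies inside the percentile range of all clusters. Ncam2 was at 7.91 in cultured CORIN+ cells and 8.49 in cultured CORIN- cells, and at 9.35 in fetal CORIN+ and 9.55 in fetal CORIN- cells. Here the ESC-derived difference was the wider one, with log2 differences of -0.58 and -0.21, of which the second lies inside the percentile range. Cntn2 had log2 signals of 8.05 in cultured CORIN+ cells and 9.12 in cultured CORIN- cells, a log2 difference of -1.06 (2.09-fold lower). This value was reached or passed downward by 0.405% of all clusters. In the fetal VM Cntn2 was at 11.38 in CORIN+ VM cells and 11.76 in CORIN- VM cells, a log2 difference of -0.39. This fetal value, too, lies inside the percentile range of all clusters. The ESC-derived value of Cntn2 lies just past 2-fold, and it was under 2-fold (a log2 difference of -0.98) when 32 was added to each linear signal.

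Of the 10 genes, Alcam and Nrcam were higher in the CORIN+ population of both pairs, L1cam, Nfasc, Ncam1, Ncam2 and Cntn2 were lower in both, and Mcam, Bcam and Chl1 went opposite ways. Among all clusters, 50.7% were higher and 49.2% lower in the ESC-derived pair. For the fetal pair these shares were 40.3% and 59.7%, so most clusters were lower there. The share of all clusters with the same direction in both pairs was not counted. In the ESC-derived pair 1 gene was at least 2-fold lower (Cntn2) and none was at least 2-fold higher, where 0.468% and 0.353% of all clusters were, or 0.821% in all. In the fetal pair 1 gene was at least 2-fold lower (L1cam) and 1 at least 2-fold higher (Alcam), where 0.672% and 2.67% of all clusters were, or 3.34% in all. The median log2 difference of the 10 was -0.071 for the cultured and -0.30 for the fetal cells, beside 0.0024 and -0.037 over all clusters. Neuronal genes had the same direction as the 5 members that were lower in both, and the list of 13, which includes Tubb3, Dcx and Stmn2, was lower in 13 of 13 in each pair. The neuronal list averaged log2 signals of 9.85 in cultured CORIN+ cells and 10.47 in cultured CORIN- cells, and of 11.44 in fetal CORIN+ and 12.01 in fetal CORIN- cells. That is also the order of the 4 arrays for L1cam, Nfasc, Ncam1, Ncam2 and Cntn2. The part of neurons in these differences was not tested.

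**Figure D2:**
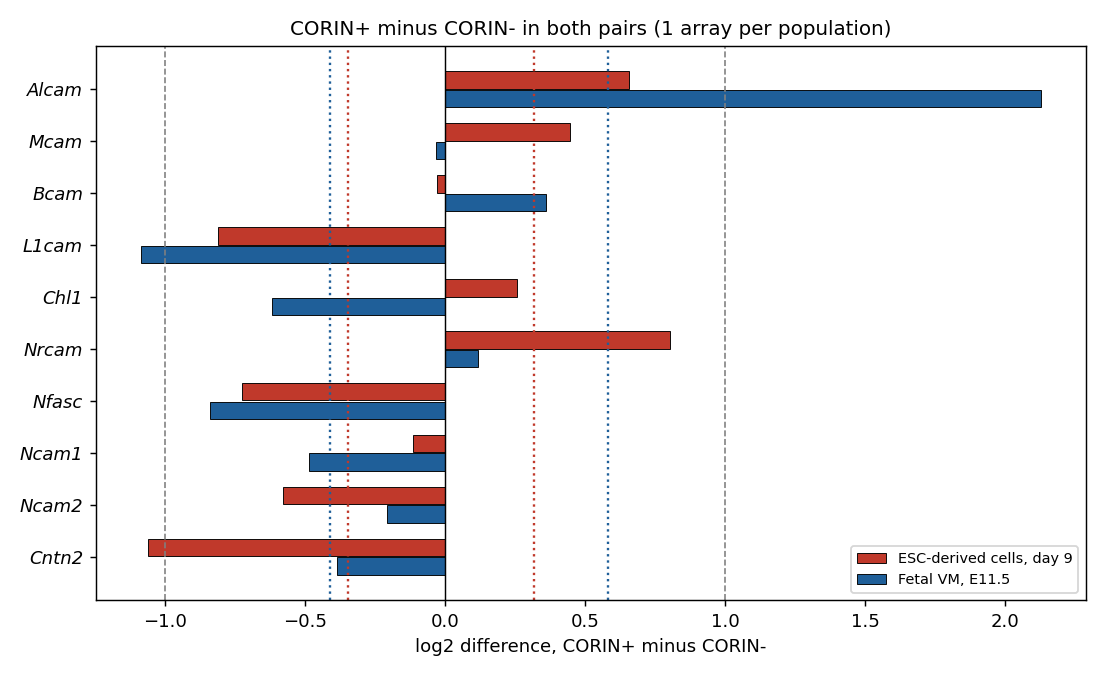
Log2 difference, CORIN+ minus CORIN- (horizontal axis), of the 10 genes in ESC-derived cells (red) and the fetal VM (blue), 1 array per population. Dotted lines of each colour are the 5th and 95th percentiles of all clusters (-0.35 and 0.32, and -0.41 and 0.58) and dashed lines mark 2-fold; Alcam in the fetal VM reaches 2.13, and L1cam and Nfasc extend to the left in both.

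Between culture and fetus, 6 of the 10 genes (L1cam, Chl1, Nfasc, Ncam1, Ncam2 and Cntn2) were lower in the ESC-derived cells in both the CORIN+ and the CORIN- populations, and Mcam, Bcam and Nrcam were higher in both. Among all clusters, 47.0% were lower and 53.0% higher in culture between the CORIN+ populations. For the CORIN- populations these shares were 53.6% and 46.3%. These differences use the same 4 arrays as the pairs above, so that only 3 of the 4 differences of a gene are independent. Cntn2 differed most, with log2 signals of 8.05 in cultured CORIN+ cells and 11.38 in fetal CORIN+ cells, a log2 difference of -3.32. In the CORIN- populations it was at 9.12 in cultured CORIN- cells and 11.76 in fetal CORIN- cells, a log2 difference of -2.65 (6.26-fold lower). The log2 differences of L1cam were -1.93 between the CORIN+ and -2.21 between the CORIN- populations. Those of Chl1 were -1.25 and -2.12. The log2 differences were -1.43 and -1.06 for Ncam2, -1.11 and -1.22 for Nfasc, and -0.86 and -1.23 for Ncam1. Between the CORIN- populations the log2 difference of Ncam2 was just under 2-fold (-0.998) when 32 was added to each linear signal, which left 5 genes at least 2-fold lower there in place of 6.
Alcam was the member with opposite directions here. It was at 11.88 in cultured CORIN+ cells and 12.02 in fetal CORIN+ cells, a log2 difference of -0.13 that 25.8% of all clusters reached or passed downward. Between the CORIN- populations it was at 11.23 in cultured CORIN- cells and 9.89 in fetal CORIN- cells, a log2 difference of 1.34 (2.53-fold). The CORIN+ populations of culture and fetus were thus nearly level for Alcam, and the CORIN- populations were not. Corin itself was higher in culture by log2 differences of 1.67 between the CORIN+ and 3.85 between the CORIN- populations, so the latter were not alike in it. Mcam had log2 differences of 0.84 and 0.36, Nrcam of 0.87 and 0.18, and Bcam of 0.66 and 1.05, the last being 2.07-fold. This value of Bcam was under 2-fold after quantile normalization (0.98) and with 32 added to each linear signal (0.98).
At least 2-fold lower in the ESC-derived cells were 5 of the 10 genes between the CORIN+ populations, where 3.86% of all clusters were, and 6 between the CORIN- populations, where 3.53% were. No member was at least 2-fold higher between the CORIN+ populations, where 2.7% of all clusters were, and Alcam and Bcam were between the CORIN- populations, where 3.94% were. The medians of the 10 genes were -0.98 and -1.14, beside 0.016 and -0.020 over all clusters. All 13 neuronal genes were also lower in the ESC-derived cells in both comparisons, 10 of them at least 2-fold in each, with median log2 differences of -1.56 and -1.63. All 10 measured floor plate genes were higher in both, with medians of 1.16 and 1.42. How far either list bears on the adhesion genes was not tested.

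**Figure D3:**
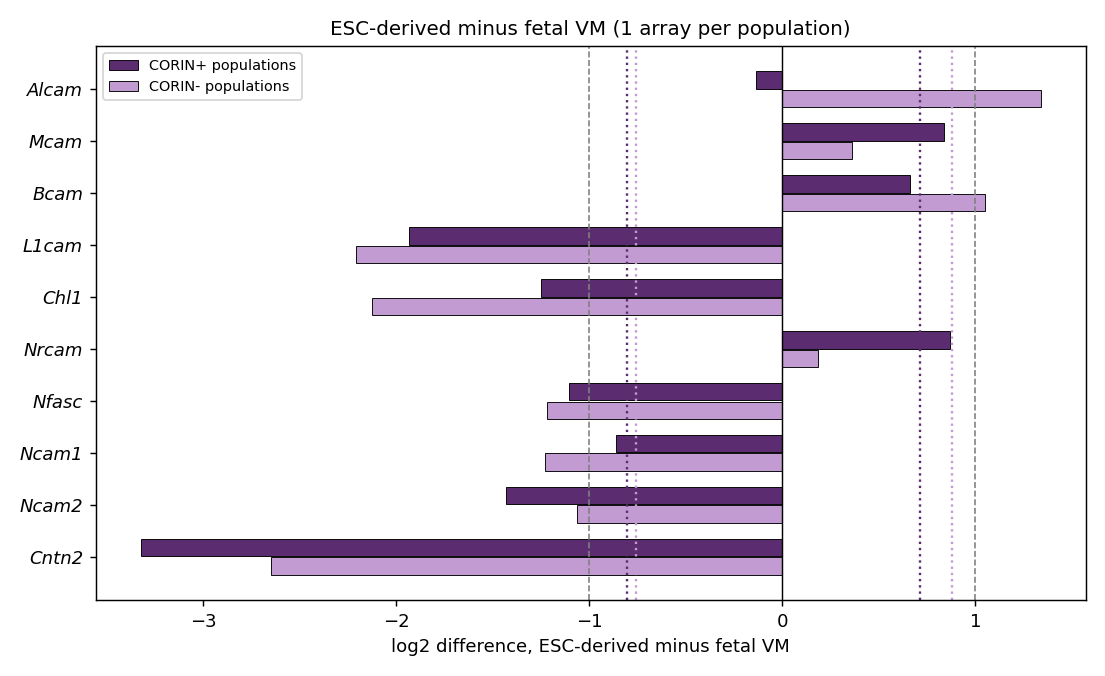
Log2 difference, ESC-derived minus fetal VM (horizontal axis), of the 10 genes between the CORIN+ populations (dark) and the CORIN- populations (light), 1 array per population. Dotted lines are the 5th and 95th percentiles of all clusters (-0.80 and 0.71, and -0.76 and 0.88) and dashed lines mark 2-fold; 6 genes lie to the left in both, and Cntn2 reaches -3.32.

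Partners inside and outside the cell were read in the same arrays. Ank2 and Ank3, which encode the ankyrins that link L1 family proteins to the spectrin skeleton, had lower signals in the CORIN+ population of both pairs, with log2 differences of -0.65 and -0.50 for Ank2 and -0.071 and -0.69 for Ank3. Both were also lower in culture than in the fetus, by log2 differences of -1.49 and -1.34 for Ank2 and -1.03 and -1.65 for Ank3. Of the 10 genes of cytoplasmic anchors none was at least 2-fold in either pair, where 0.821% and 3.34% of all clusters were. The medians of these 10 were -0.078 and 0.14. St8sia2 and St8sia4 encode the enzymes that put polysialic acid on NCAM1, and their signs differed in the ESC-derived pair alone. St8sia2 had log2 differences of 0.24 in the ESC-derived and -0.30 in the fetal pair, and St8sia4 of -0.45 and -0.55. St8sia4 had log2 signals of 7.67 in cultured CORIN+ cells and 8.12 in cultured CORIN- cells, and of 8.97 in fetal CORIN+ and 9.51 in fetal CORIN- cells, the order of arrays that Ncam1 had. Of all clusters, 0.353% were at least 2-fold higher in the ESC-derived and 2.67% in the fetal pair, and 0.468% and 0.672% were at least 2-fold lower. None of 18 ligands and other partners was at least 2-fold lower in either pair. At least 2-fold higher was 1 of them when cultured cells were compared, and 3 when fetal cells were. The gene in the ESC-derived pair was Nrp1, a semaphorin co-receptor that binds L1CAM and CHL1, at a log2 difference of 1.18. Those in the fetal pair were Lgals1, a galectin, at 1.74, the semaphorin Sema3a at 1.64 and Lama4, a laminin chain of vessel walls that MCAM binds, at 1.43. Sema3a had a log2 difference of -0.62 in the ESC-derived pair. Ncan, which encodes the proteoglycan neurocan that binds L1CAM and NCAM1, was lower in culture than in the fetus by log2 differences of -3.00 and -2.82, the widest in this list for the CORIN+ populations.

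The 10 genes can be set beside 36 other measured genes of immunoglobulin adhesion molecules, of 38 listed. At least 2-fold among these was 1 gene (2.78%, beside 0.821% of all clusters) when cultured cells were compared. In the fetal pair 2 genes were (5.56%, beside 3.34% of all clusters). Dscam, an adhesion molecule by which neurites of one cell avoid each other, was lower in both, with log2 differences of -1.09 and -1.29. The other was F11r, a tight junction molecule, higher in fetal CORIN+ cells at 1.11, with -0.38 in the ESC-derived pair. While 2 of the 10 genes were higher in the CORIN+ population of both pairs, 5 lower in both and 3 opposite, the numbers among the 36 were 6, 12 and 18. The other contactins differed from Cntn2 in part. Cntn3 had log2 differences of 1.82 between the CORIN+ and 2.33 between the CORIN- populations of culture and fetus, higher in culture where Cntn2 was lower. Cntn6 was lower in culture like Cntn2, at -1.62 and -1.10. Nectin3, a nectin of neuroepithelial junctions, was higher in the CORIN+ population of both pairs, as Alcam and Nrcam were, with log2 differences of 0.73 and 0.55, and higher in culture by 1.21 and 1.03. Vcam1 was lower in culture by log2 differences of -3.30 and -2.40. At least 2-fold in either direction between culture and fetus were 22.2% of the 36 genes for the CORIN+ and 30.6% for the CORIN- populations, where 6.56% and 7.47% of all clusters were. The medians of the 10 genes for these populations were -0.98 and -1.14, against -0.0053 and -0.092 for the 36.

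**Figure D4:**
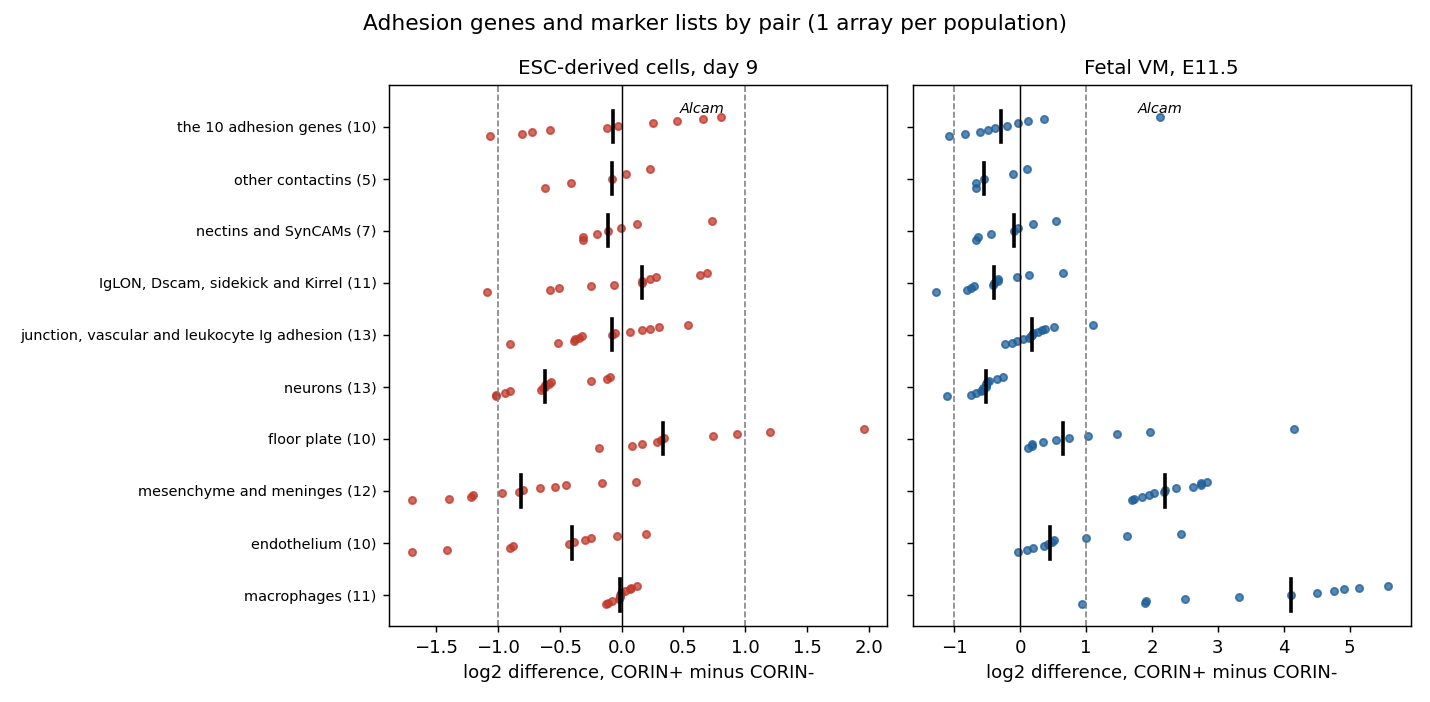
Log2 difference, CORIN+ minus CORIN- (horizontal axis), of each gene (points) in the 10 adhesion genes, other adhesion lists and marker lists, for ESC-derived cells (left) and the fetal VM (right), 1 array per population, with list medians as black bars, the number of measured genes in parentheses and dashed lines at 2-fold. Alcam lies at 0.66 and 2.13, to the right of the median of the 10 genes (-0.071 and -0.30); the axes of the panels differ in range.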

How the data were processed

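Total RNA of at least 100000 sorted cells per population was labelled with the Ambion WT Expression Kit and hybridized by the authors to Affymetrix whole-transcript mouse arrays, and the data were analysed by them in GeneSpring. They deposited 1 table of log2 signals, with 28856 transcript clusters and 4 arrays. How probes were summarized and arrays normalized, any filter and the build were not given in the sources used here. No background values or detection calls were used. An unstated normalization can shift all differences of an array together. The base of the logarithm and the direction were set from the study's supplementary lists of folds, since 2 raised to the column difference gives them for each of 83 and 677 clusters within a relative difference of 3.7e-06.

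Of the clusters, 21789 have 1 symbol in the annotation table, 1621 have several and 5446 have none there. Gene identifiers gave current GRCm38.p6 names for 21698 of the first, and where a gene has several clusters the brightest represents it. Each of the 10 genes has 1. Differences were taken on the log2 scale and counted at 2-fold. Of 174 entries in 17 further gene lists, 169 were measured. The members and lists were chosen with earlier results of these data known. Named genes were the 10 members, up to 4 genes of each list past 2-fold, partners fixed by role, and the 5 nearest to Alcam. The alternatives tried were quantile normalization, median centring, an offset of 32 on linear signals, a gene's mean cluster, other fold thresholds (1.5 and 3) and a filter at the 20th percentile. Python 3.11.15, numpy 2.4.6, pandas 2.3.3 and matplotlib 3.10.9 were used.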

Additional observations from a re-analysis of the deposited data

Results flagged for a closer look

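Of the 10 genes, 3 had opposite directions in the pairs of populations, and the difference between the pairs was not tested, since each population has 1 array. Chl1 had a log2 difference of 0.26 between cultured CORIN+ cells and cultured CORIN- cells and of -0.62 between CORIN+ and CORIN- cells of the fetal VM. Mcam had log2 differences of 0.44 and -0.032, and Bcam of -0.027 and 0.36. In Mcam and Bcam 1 of the values is nearly 0, so that the opposite sign rests on a small difference.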

How the results depend on the processing

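Under quantile normalization, median centring and 32 added to the linear signal, each log2 difference of the 10 genes moved by less than the spread (scaled median absolute deviation) of all clusters, and the sign changed for Mcam in the fetal pair alone, under centring. Averaging of a gene's clusters could change nothing, since each of the 10 genes has 1 cluster. With 32 added, no gene was 2-fold lower in the ESC-derived pair (0), 1 was 2-fold higher between the CORIN- populations of culture and fetus, as also under quantile normalization (1), and 5 were 2-fold lower there, since Ncam2 passed to -0.998 on the log2 scale. At 1.5-fold, 2 genes were higher and 3 lower in the ESC-derived pair (1.34% and 1.98% of all clusters), 3 were lower in the fetal pair (2.59%), and 3 were higher between the CORIN+ populations (6.9%). At 3-fold, 0 were lower in either pair (0.125% of all clusters in the ESC-derived and 0.0485% in the fetal pair), 2 were lower between the CORIN+ populations (1.71%), and between the CORIN- populations 0 were higher (1.35%) and 3 lower (1.22%). All 10 genes lay above the 20th percentile of signal in each array, so this filter changed no count. No paired analysis was possible because each population has 1 array. Leaving out a replicate could not be done for the same reason. Signal over background is unknown here.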
